A study of Homo sapiens with 14 samples.

Results

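Ovarian carcinomas are recognised in pathology by a small set of genes carried over from the Müllerian epithelium or shed as tumour antigens, and 7 of them are described here: PAX8, MECOM, SOX17, WFDC2, MSLN, FOLR1 and MUC16. They were taken by gene name from a table of single adenosines measured by GLORI, and their sites make up 169 of the 407343 listed positions. No site was listed under MUC16, which encodes the large mucin that carries the CA125 epitope, so that gene was not analysed here. The other 6 had 58 sites in PAX8, 44 in MECOM, 31 in SOX17, 28 in MSLN, 6 in FOLR1 and 2 in WFDC2. GLORI deaminates unmethylated adenosines with glyoxal and nitrite so that they are read as G, whereas N6-methyladenosine (m6A) is still read as A. The m6A level of a site is thus the percentage of its reads that carry A, and its read coverage is the number of reads with A or G.

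The libraries came from polyadenylated RNA of human cancer cell lines, 2 per group and 14 in all. CAOV3 ovarian carcinoma cells were exposed for 24 h to STM3675 at 1 uM, and the same line was kept for 24 h with the solvent DMSO. COV644, EFO21 and SKOV3 (also labelled ovarian carcinoma), A549 (lung carcinoma) and OE21 (oesophageal carcinoma) were measured with DMSO only, so the response to STM3675 is known for 1 line. The study is about inhibitors of METTL3, the enzyme that writes most m6A in messenger RNA, and the labels do not say whether replicate libraries were separate cultures. P-values therefore speak of the spread between these libraries, which may be technical.

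PAX8 is a paired-box transcription factor of the developing Müllerian duct, kidney and thyroid and a diagnostic marker of tubo-ovarian carcinoma. SOX17, an HMG-box factor, and MECOM, a zinc-finger factor whose locus is often gained in these tumours, are known as co-regulators within the same lineage programme. WFDC2 encodes the secreted serum marker HE4, MSLN the surface protein mesothelin that binds the mucin made by MUC16, and FOLR1 the folate receptor alpha, and the last 2 genes are targets of antibody drugs. METTL3 methylates adenosine within the motif DRACH, most often near stop codons, in last exons and in long internal exons.

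Of the 169 sites, 74 (43.8%) lie in DRACH, against 38.4% of all listed positions, and 48.5% lie in a last exon, against 53.4% of the positions that have a gene. The motifs of the sites on which the results turn are given as the table has them, in the direction of the transcript with the measured adenosine in capitals, and positions are those of GRCh38. The PAX8 sites stand in last exon 12 on the minus strand of chromosome 2, the MECOM sites in last exon 17 and in internal exon 8 on the minus strand of chromosome 3. MSLN (chromosome 16), FOLR1 (chromosome 11) and WFDC2 (chromosome 20) are on the plus strand, and their sites shown are in the last exon, 18 for MSLN and 4 for FOLR1 and WFDC2.
PAX8 113217481: agAct
PAX8 113218111: ggAcc
PAX8 113218321: tgAgg
PAX8 113218332: agAct
PAX8 113218521: ggAca
MECOM 169084531: aaAct
MECOM 169084835: agAct
MECOM 169084847: ggAct
MECOM 169115857 (internal exon 8): atAct
MSLN 768679: ggAcc
MSLN 768685: ggAcc
MSLN 768824: gaAct
FOLR1 72195983: ggAct
WFDC2 45481470: gtAtt
All of these except the sites of PAX8 113218321, MECOM 169115857 and WFDC2 45481470 are DRACH.

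The libraries held 14047302 to 28663588 reads at listed sites, with a median of 16 to 32 reads per site. Levels are given where both libraries of a group had at least 20 reads, which left 152 of the 169 sites in at least 1 line. The table lists a site only if some DMSO library had 20 reads and a level of 25% or more, and 108 of the 169 sites (63.9%) met that in exactly 1 DMSO library. Unconverted adenosine differed between lines: the median level of non-DRACH sites covered in every DMSO library was 4.27% in COV644 and 4.27% in OE21, against 10.5% to 12.7% in A549, CAOV3, EFO21 and SKOV3. Squamous markers summed to 11040 and 11020 CPM (reads scaled to a common library size) in the OE21 libraries and to at most 1320 CPM elsewhere. Of 11 lung alveolar genes 4 were listed: in A549 the lung factor NKX2-1 averaged 0.109 CPM, LAMP3 0.171 CPM and AQP5 0 CPM, whereas the lipid transporter ABCA3 averaged 92.1 CPM. The 4 summed to 95.1 and 89.6 CPM in A549 and to 23.5 to 67.1 CPM in the other DMSO libraries.

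The first question was where the marker transcripts were read. Each gene had its highest coverage in an ovarian line, but not in the same one. EFO21 was among the 3 highest lines for all 6 genes, whereas CAOV3 lay at the bottom for MECOM, with A549. Coverage is expressed as CPM of the reads at the gene's listed sites, a read that spans several sites being counted at each, so values are compared between lines for 1 gene and not between genes. In such bulk libraries, fewer expressing cells and less RNA per cell cannot be told apart.

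The lineage factors were highest in SKOV3 and EFO21. PAX8 (ENSG00000125618) had 79.3 and 80.7 CPM in CAOV3, 25.7 and 19.2 CPM in COV644, 251 and 238 CPM in EFO21 and 366 and 357 CPM in SKOV3, against 2.13 and 3.63 CPM in A549 and 26.2 and 19.4 CPM in OE21. The COV644 and OE21 libraries overlapped, so an ovarian line and the oesophageal line were not separated by PAX8, while A549 was lowest. MECOM (ENSG00000085276) had 0.319 and 0.638 CPM in CAOV3, 83.0 and 80.8 CPM in COV644, 282 and 271 CPM in EFO21 and 402 and 431 CPM in SKOV3, against 1.07 and 0.590 CPM in A549 and 34.5 and 27.5 CPM in OE21. CAOV3, with 6 and 12 reads over all 44 sites, thus lay as low as A549, and its libraries overlapped those of A549. SOX17 (ENSG00000164736) had 3.83 and 3.56 CPM in CAOV3, 57.3 and 71.5 CPM in COV644, 210 and 190 CPM in EFO21 and 76.0 and 62.7 CPM in SKOV3, against 1.44 and 2.09 CPM in A549 and 0.515 and 0.0566 CPM in OE21. EFO21 stood highest for SOX17, SKOV3 and COV644 overlapped, and CAOV3 stood only just above A549.

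The antigens followed other orders. MSLN (ENSG00000102854) had 253 and 269 CPM in CAOV3, 1434 and 1435 CPM in COV644, 116 and 110 CPM in EFO21 and 12.03 and 13.7 CPM in SKOV3, against 1.40 and 1.50 CPM in A549 and 2.25 and 1.08 CPM in OE21. Its order put COV644 first and SKOV3 last of the ovarian lines, with A549 and OE21 overlapping below them. WFDC2 (ENSG00000101443) had 138 and 216 CPM in CAOV3, 1.72 and 1.60 CPM in COV644, 67.6 and 74.9 CPM in EFO21 and 1.36 and 1.38 CPM in SKOV3, against 0 and 0.136 CPM in A549 and 0.901 and 0.680 CPM in OE21. COV644 and SKOV3, with 24 to 30 reads per library, were therefore close to OE21, whose libraries had 14 and 12 reads. FOLR1 (ENSG00000110195) had 24.3 and 23.5 CPM in CAOV3, 39.0 and 28.4 CPM in COV644, 86.1 and 82.6 CPM in EFO21 and 50.4 and 60.4 CPM in SKOV3, against 0.123 and 0.0454 CPM in A549 and 1.16 and 1.08 CPM in OE21. FOLR1 was the most even of the 6 among the ovarian lines, and all 4 stood above both other lines.

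**Figure D1:**
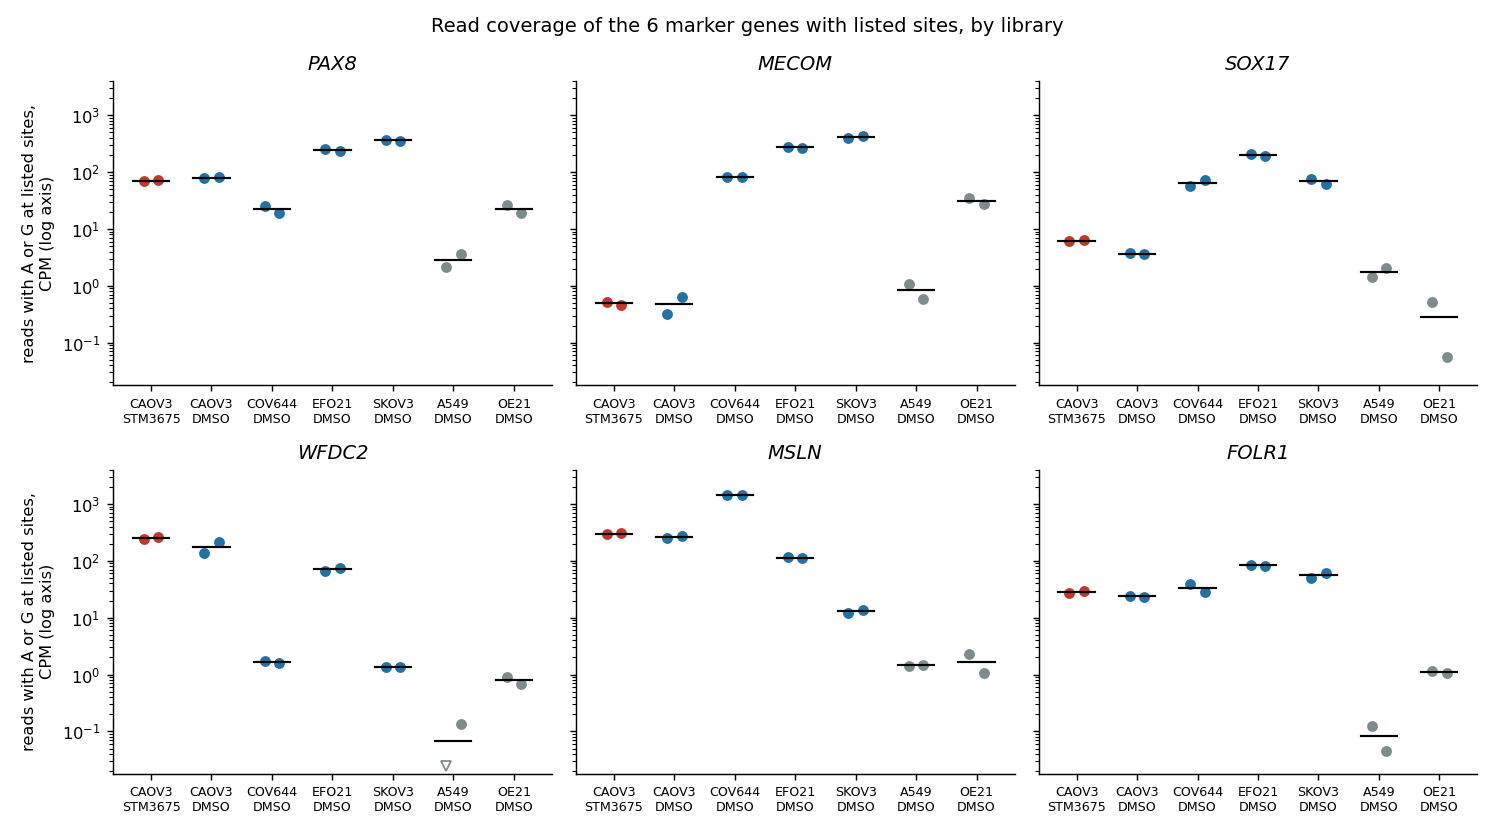
Read coverage of each gene in CPM (log axis) in the 14 libraries, 2 points per group with the mean as a bar; red marks CAOV3 with STM3675, blue the ovarian lines with DMSO and grey A549 and OE21. An open triangle marks a library with 0 reads (WFDC2 in A549 replicate 1). FOLR1, MSLN, SOX17 and WFDC2 lie above A549 and OE21 in all 4 ovarian lines, WFDC2 only narrowly in COV644 and SKOV3. MECOM in CAOV3 and PAX8 in COV644 do not.

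All 6 genes differed among the 6 lines (edgeR quasi-likelihood F test, adjusted p between 6e-17 and 7.7e-14), but so did 99.3% of the 13729 genes tested. Between the 4 ovarian lines and A549 with OE21, the mean log2 CPM differed by 6.57 for MSLN, 6.53 for FOLR1, 5.81 for SOX17, 5.16 for WFDC2, 3.79 for PAX8 and 3.18 for MECOM, all higher in the ovarian lines. These differences were computed with a prior count of 2, on which those against near-empty libraries depend. No site of MSLN, FOLR1, SOX17 or WFDC2 had 20 reads in an A549 or OE21 library, so their sites are listed through ovarian lines alone. That listing favours a difference, and for these genes the F test and the test that follows are a description only. Of the 58 PAX8 sites, 53 were covered in SKOV3, 2 in OE21 and 1 in A549. Of the 44 MECOM sites, 39 were covered in SKOV3, 7 in OE21 and 0 in A549. Their listing leans the same way, so the same limit holds for PAX8 and MECOM. A two-sided exact permutation test over the 6 line means cannot go below p = 0.0667, which MSLN, FOLR1 and SOX17 reached. Of all genes 10.3% reached it, and 5.01% did so with the ovarian lines higher. WFDC2 (p = 0.133), PAX8 (p = 0.2) and MECOM (p = 0.467) did not by the same exact permutation test. After adjustment over all genes no member passed (adjusted p between 0.646 and 0.861), and 0% of all genes passed.

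Across the 6 line means with DMSO, Pearson's r of log2 CPM between pairs of these genes ran from -0.0193 (MECOM and WFDC2) to 0.877 (PAX8 and FOLR1), a description over 6 points that share libraries and depth. The genes whose pattern over the 6 means was most like that of PAX8 were KAZN (r = 0.992) and PRDM10 (r = 0.984). MECOM was matched most closely by TSPYL1 (r = 0.979), SOX17 by DNAH1 (r = 0.991), WFDC2 by ZNF695 (r = 0.993), MSLN by FAM3C (r = 0.994) and FOLR1 by RGL2 (r = 0.991). None of these is another of the marker genes. Each r was picked as among the highest of the 13729 genes over only 6 points, so its size is a description and carries no test.

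The second question was where these transcripts carried m6A and whether levels differed among lines. PAX8, MECOM and SOX17 each held DRACH sites with nearly complete m6A: in SKOV3, 2 sites of PAX8, 4 of MECOM and 2 of SOX17 were at 90% or more. FOLR1 and MSLN had no covered DRACH site at 90% or more in any ovarian line, and WFDC2 had no DRACH site listed. In SKOV3, 13 of 27 covered DRACH sites of MECOM, 5 of 21 of PAX8 and 4 of 5 of SOX17 were at 50% or more, against 0 of 3 of FOLR1 and 0 of 1 of MSLN. MSLN was little read in SKOV3. At 50% or more were 1 of its 13 covered DRACH sites in COV644 and 1 of 10 in CAOV3.

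In MECOM, the DRACH sites at 90% or more in SKOV3 stood in 2 exons. In last exon 17, which is 1537 nt long, the site at 169084847, 196 nt from the exon start, had 94.7% and 99.0% in COV644, 97.5% and 98.7% in EFO21, 98.1% and 97.2% in SKOV3 and 95.2% and 92.3% in OE21. The ggAct motif there was thus nearly fully methylated in all 4 lines with enough reads. A neighbour 12 nt away, at 169084835, had means of 89.5% in COV644, 91.0% in EFO21, 85.6% in SKOV3 and 75.5% in OE21. Further along the same exon, at 512 nt (169084531), the means were 43.8% in COV644, 46.9% in EFO21, 42.5% in SKOV3 and 35.5% in OE21. The 3 DRACH sites covered from 554 nt onwards were at most 28.6% in EFO21 and 28.7% in SKOV3, and the covered DRACH site nearest the exon start, 169084883 at 160 nt, had 24.4% in COV644, 30.5% in EFO21 and 27.5% in SKOV3. The high levels of this exon thus stood between 196 and 512 nt. In internal exon 16, the DRACH site 169089156 had means of 46.5% in COV644, 45.9% in EFO21, 51.3% in SKOV3 and 38.1% in OE21. Internal exon 8, which is 1357 nt long, held other high sites. Among them was a non-DRACH adenosine at 169115857 in atAct, with 61.5% and 61.8% in COV644, 56.8% and 56.2% in EFO21, 51.1% and 55.1% in SKOV3 and 70.0% and 75% in OE21. The range of its line means, 19.4 points, was the largest of the MECOM sites tested and did not pass (adjusted p = 0.3).

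SOX17, on chromosome 8, was covered in 3 lines. The site at 54459842 in last exon 2 had 100% and 99.1% in COV644, 98.5% and 99.0% in EFO21 and 99.3% and 100% in SKOV3. At 54460073 the libraries lay between 86.6% and 92.5% in these lines, and at 54460161 the means were 64.3% ± 16.0 in COV644, 49.6% ± 0.62 in EFO21 and 54.4% ± 2.23 in SKOV3 (SD, 2 libraries each). The widest spread of a DRACH site of SOX17 was at 54459826, with 50.8% in COV644, 34.3% in EFO21 and 31.1% in SKOV3, which did not pass the test (adjusted p = 0.2).

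**Figure D2:**
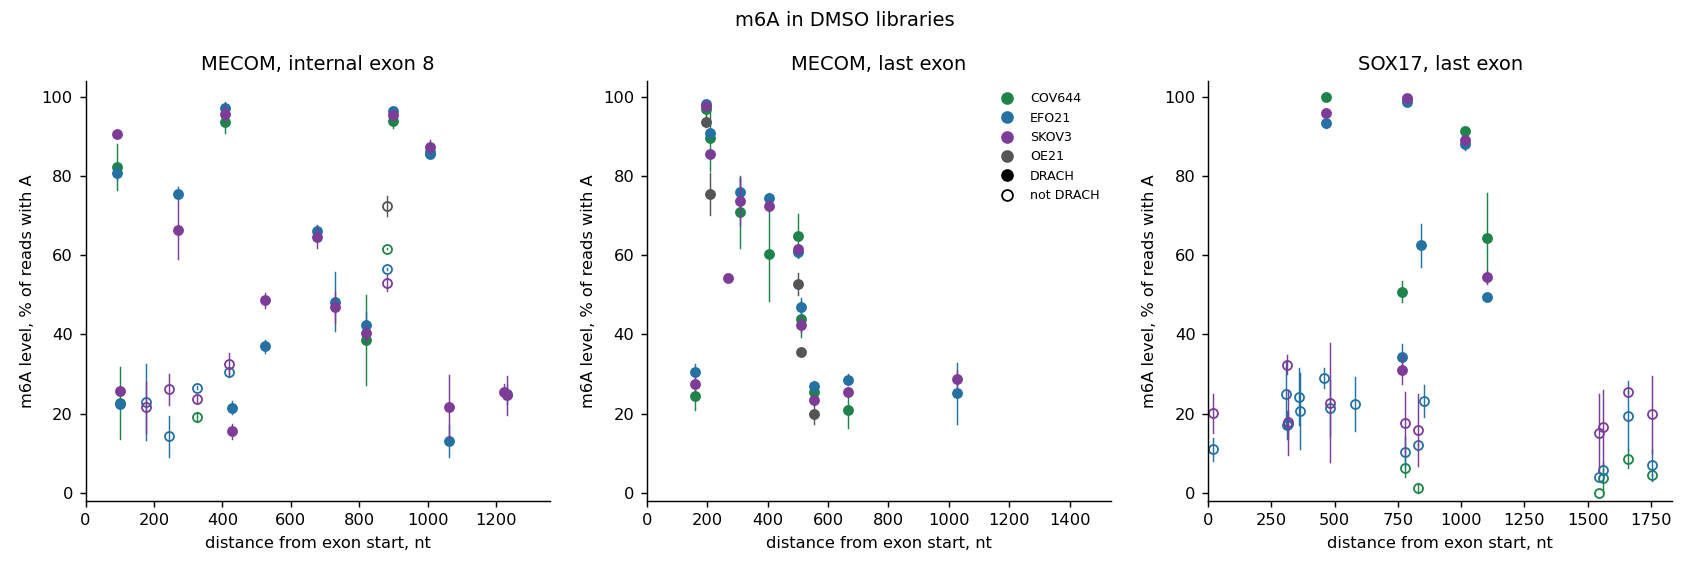
m6A level with DMSO against distance from the exon start for MECOM (internal exon 8 and last exon 17) and SOX17 (last exon 2) in each line with at least 20 reads in both libraries. Points are means of 2 libraries, lines join the 2 libraries, and filled points are DRACH sites. MECOM's highest site in the last exon, at 196 nt, lies between 93.8% and 98.1%, and the sites at 160 nt and from 554 nt onwards lie lower.

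In PAX8 the DRACH sites at 50% or more in SKOV3 lay between 116 and 834 nt from the start of last exon 12, which is 2613 nt long. The highest read in several lines, 113218111 in ggAcc, had 97.9% and 96.6% in CAOV3, 85.7% and 87.5% in COV644, 95.9% and 95.1% in EFO21 and 93.6% and 90.7% in SKOV3, against 93.5% and 100% in OE21. COV644 was the lowest of the 5 lines there, by 10.7 points from the highest, with an adjusted p of 0.04. That call was lost without either COV644 library (adjusted p = 0.14 and 0.082) and without CAOV3 replicate 1, EFO21 replicate 1, OE21 replicate 2 or SKOV3 replicate 2 (adjusted p between 0.07 and 0.087). The only site of these genes read in all 6 lines, 113217481 in agAct, had means of 16.8% in CAOV3, 6.38% in COV644, 15.9% in EFO21 and 13.4% in SKOV3, against 6.53% in OE21 and 5.00% and 27.3% in the A549 libraries, on 20 and 33 reads. These means ranged over 10.5 points, or 20.9 points without A549 replicate 1. The site is listed through A549 replicate 2 alone, its highest library and among those compared, so the difference is given with no test. COV644 and OE21, the 2 lowest line means there, are the 2 lines of low unconverted background, and the part of that background in the difference was not tested.

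A pair of PAX8 sites 11 nt apart behaved in opposite ways. At 113218321, in tgAgg, A was read in 85.3% and 88.0% of reads in COV644, against 10.0% and 0% in EFO21 and 6.85% and 1.45% in SKOV3. At 113218332, in agAct, COV644 had 8.11% and 15.4%, against 61.4% and 53.3% in EFO21 and 52.0% and 40.5% in SKOV3. COV644 was thus the highest line at the first site and the lowest at the second. The first site is listed through the COV644 libraries and OE21 replicate 1 alone, the second through the EFO21 and SKOV3 libraries alone. Each is listed only through lines where it is high, so both differences are given with no test. OE21, with 1 library short of 20 reads at each site, had 89.7% and 81.3% at the first site (29 and 16 reads) and 12.9% and 16.7% at the second (31 and 18 reads). CAOV3 had 0% and 0% at the first (8 and 11 reads) and 62.5% and 58.3% at the second (8 and 12 reads). OE21 thus looked like COV644 and CAOV3 like EFO21 and SKOV3, as values at too low a depth to count as covered. Without COV644 replicate 1 the difference at 113218332 was 42.0 points, against 45.6 points with it. Without COV644, the line means of EFO21 and SKOV3 differed by 0.851 points at 113218321 and 11.1 points at 113218332.

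**Figure D3:**
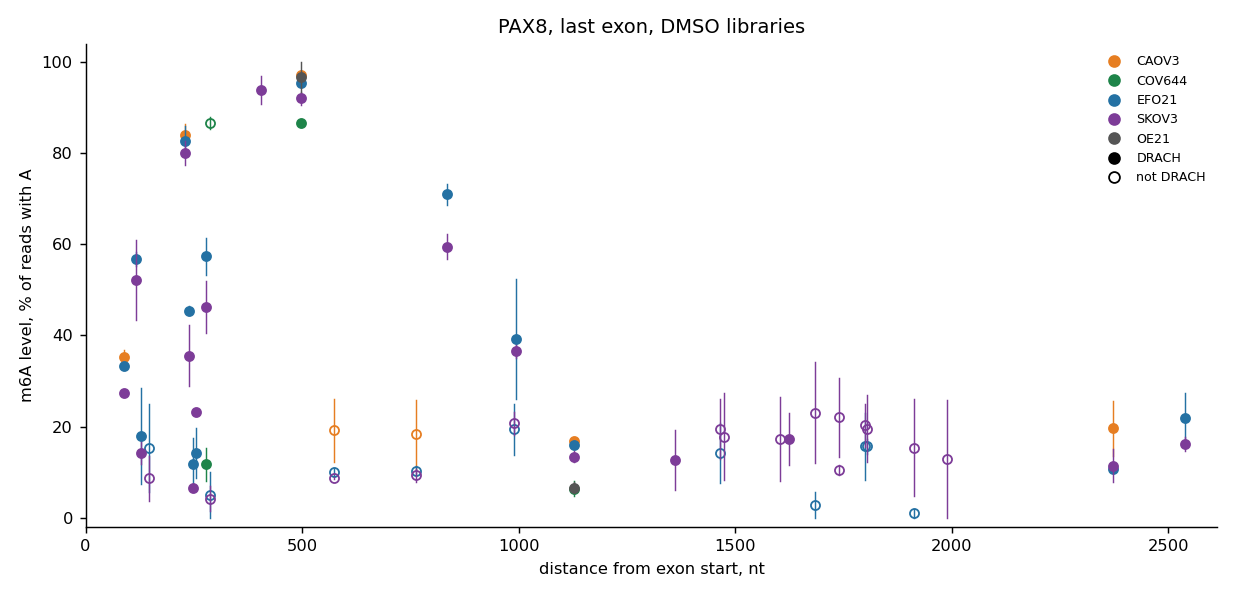
m6A level with DMSO against distance from the start of last exon 12 of PAX8 in lines with at least 20 reads in both libraries; A549, with 1 covered site, is not drawn. Points are means of 2 libraries, lines join the libraries, and filled points are DRACH sites. The open green point at 288 nt is the COV644 value of 86.7% at 113218321, beside EFO21 and SKOV3 at 5.00% and 4.15%.

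Over sites covered in both, SKOV3 and EFO21 differed by a median of 3.36 points at 50 DRACH sites, at most 11.6 points, and by a median of 5.97 points at 47 non-DRACH sites. Pearson's r was 0.983 over the DRACH sites and 0.625 over the others, as a description over sites of the same libraries. Between COV644 and EFO21 the median absolute difference was 4.57 points at 34 DRACH sites, of which COV644 was higher at 12. At 21 non-DRACH sites COV644 was higher at 3.

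By the test over lines, 18 of the 119 testable sites differed, against 10.6% of all 278041 sites tested. The table's own minimum bears on this count: 12 of the 18 are listed through 1 DMSO library (68 of the 119), and for 10 of the 12 that library is of the line where the site is then highest, so the listing favours a difference and the count supports nothing. The 18 were 5 of 37 sites in PAX8, 12 of 24 in MSLN and 1 of 17 in SOX17 (a non-DRACH site at 54460718, lost without any one library of COV644 or OE21), and 0 of 33 in MECOM, 0 of 6 in FOLR1 and 0 of 2 in WFDC2. Of DRACH sites 7 of 59 differed (13% of all DRACH sites did), and of non-DRACH sites 11 of 60 (9.01% of all). The median range of line means was 9.06 points for these genes and 13.3 points for all sites. COV644 was the lowest line at 16 of the 18 and the highest at 1. With COV644 and OE21 left out, 0 of 109 sites differed by the quasi-binomial test (9 at an unadjusted p under 0.05), against 2.04% of all sites. The part of the lower unconverted background of COV644 in these differences was not tested further.

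MSLN held most of these sites. At 768715, a non-DRACH adenosine in last exon 18, the levels were 9.34% and 11.9% in CAOV3, 5.50% and 4.21% in COV644, 11.4% and 8.24% in EFO21 and 17.9% and 33.3% in SKOV3. This site is listed through SKOV3 replicate 2 alone, on 39 reads, so its difference is given with no test. At all 14 non-DRACH sites of MSLN covered in both, COV644 was lower than CAOV3, by a median of 6.80 points, and at its DRACH sites COV644 was higher at 2 of 10. The widest DRACH difference was at 765292 in internal exon 9, with 5.93% and 11.7% in COV644 and 38.5% and 40.6% in CAOV3. That site is listed through the CAOV3 libraries alone, and it too is given with no test. None of the 3 DRACH sites tested in the last exon passed (adjusted p between 0.33 and 0.68): 768685 had 34.6% in CAOV3, 35.4% in COV644 and 31.8% in EFO21, 768824 had 75% in CAOV3 and 83.4% in COV644, and 768679 had 28.4% in CAOV3, 23.3% in COV644 and 25.7% in EFO21. FOLR1 had its highest level at 72195983 in last exon 4, with means of 41.8% in CAOV3, 33.9% in COV644, 42.1% in EFO21 and 42.3% in SKOV3 (adjusted p = 0.11). In WFDC2 both sites are non-DRACH, and 45481470 had 8.48% in CAOV3, 3.85% in COV644, 7.30% in EFO21 and 26.2% in SKOV3, where 28 and 24 reads gave 10.7% and 41.7%.

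The third question was what STM3675 did to these transcripts in CAOV3. It lowered m6A at 6 of the 18 DRACH sites tested and at 0 of the 25 non-DRACH sites, and it raised none of the 43. Over all sites 35.2% fell and 0.309% rose, with 73.9% of DRACH and 7.87% of non-DRACH sites falling. The median difference between STM3675 and DMSO was -9.45 points at these DRACH sites and -28.4 points at all DRACH sites tested, and 0.153 and -1.87 points at non-DRACH sites. With DMSO, 7 of the members' 18 DRACH sites were at 25% or more, against 53040 of all 77040. Of these 7, 5 fell, against 95.1% of all such sites, and of the 11 under 25% 1 fell, against 27.2%. In both classes a smaller share fell than over all sites, on few sites, and why was not tested.

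PAX8 m6A fell at 3 of its 5 tested DRACH sites. At 113218111 the level was 12.5% and 25.9% with STM3675 and 97.9% and 96.6% with DMSO, on 85 to 144 reads per library (adjusted p = 1.2e-42). The 2 STM3675 libraries differed from each other but both stood far below the DMSO libraries. At 113218521 the level was 5.43% and 14.5% with STM3675 and 33.9% and 36.8% with DMSO (adjusted p = 9.2e-05), a call lost without STM3675 replicate 1 (adjusted p = 0.081). At 113217481, on 478 to 590 reads, it was 7.14% and 5.76% with STM3675 and 17.1% and 16.5% with DMSO (adjusted p = 1.9e-08). Summed over the 12 tested sites, PAX8 had 10.4% and 9.06% with STM3675 against 30.0% and 27.7% with DMSO, a difference of -19.1 points (adjusted p = 4.1e-09). Of its 58 sites 19 lie within the span of the antisense gene PAX8-AS1 (113235527 to 113267023 in RefSeq), with 16.3% of its reads, and none of the 3 called sites is among them.

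At the called sites of MSLN and FOLR1 a larger share of the DMSO level remained, a difference between genes that carries no test. At MSLN 768824, in gaAct 38 nt before the end of last exon 18, the level was 42.9% and 40.9% with STM3675 and 75% in both libraries with DMSO, on 32 to 44 reads (adjusted p = 0.0029). The ratio of STM3675 to DMSO was 0.558 there. Among the 7496 tested DRACH sites at 75% to 90% with DMSO, the median ratio was 0.14, and 0.2% had a ratio as high. At 768685 the level was 15.9% and 20.7% with STM3675 and 35.8% and 33.3% with DMSO (adjusted p = 8.9e-07), and at 768679, 6 nt away, 18.3% and 22.3% with STM3675 and 29.4% and 27.5% with DMSO, which did not pass (adjusted p = 0.078; 0.043 among sites with at least 50 reads). Their ratios were 0.529 and 0.712, which 4.74% and 1.49% of the sites at 25% to 50% with DMSO reached. FOLR1 had 26.6% and 26.8% with STM3675 and 36.5% and 47.1% with DMSO at 72195983 (adjusted p = 0.00012), a ratio of 0.638. The median ratio of the 23981 tested DRACH sites at 25% to 50% with DMSO was 0.229, and 2.29% had a ratio as high as that of FOLR1 72195983. PAX8 113218111, at a ratio of 0.197, equalled the median of 0.197 of the 8828 sites at 90% or more. These shares describe where single sites stand and carry no test.

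FOLR1 72195667, in internal exon 3, had 23.6% and 17.0% with STM3675 and 22.1% and 20.5% with DMSO, and did not pass (adjusted p = 0.94). FOLR1 72195410, in internal exon 2, had 14.1% and 4.23% with STM3675 and 21.4% and 16.9% with DMSO (adjusted p = 0.21). Summed per gene, FOLR1 had 22.8% and 19.5% with STM3675 against 30.6% and 31.1% with DMSO (difference -9.67 points, adjusted p = 0.0027), which was lost without STM3675 replicate 2 (adjusted p = 0.061). MSLN had 12.1% and 11.6% against 11.9% and 14.4% (adjusted p = 0.089), its 14 non-DRACH sites included, and fell by 6.27 points over its 10 DRACH sites alone (adjusted p = 7e-05). WFDC2 had 8.18% and 9.04% with STM3675 against 8.66% and 10.0% with DMSO (adjusted p = 0.2). PAX8 and FOLR1 thus fell and MSLN and WFDC2 did not pass, where 81.7% of 11227 genes fell and 0.0623% rose. MECOM and SOX17 had too few reads in CAOV3 to be tested.

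**Figure D4:**
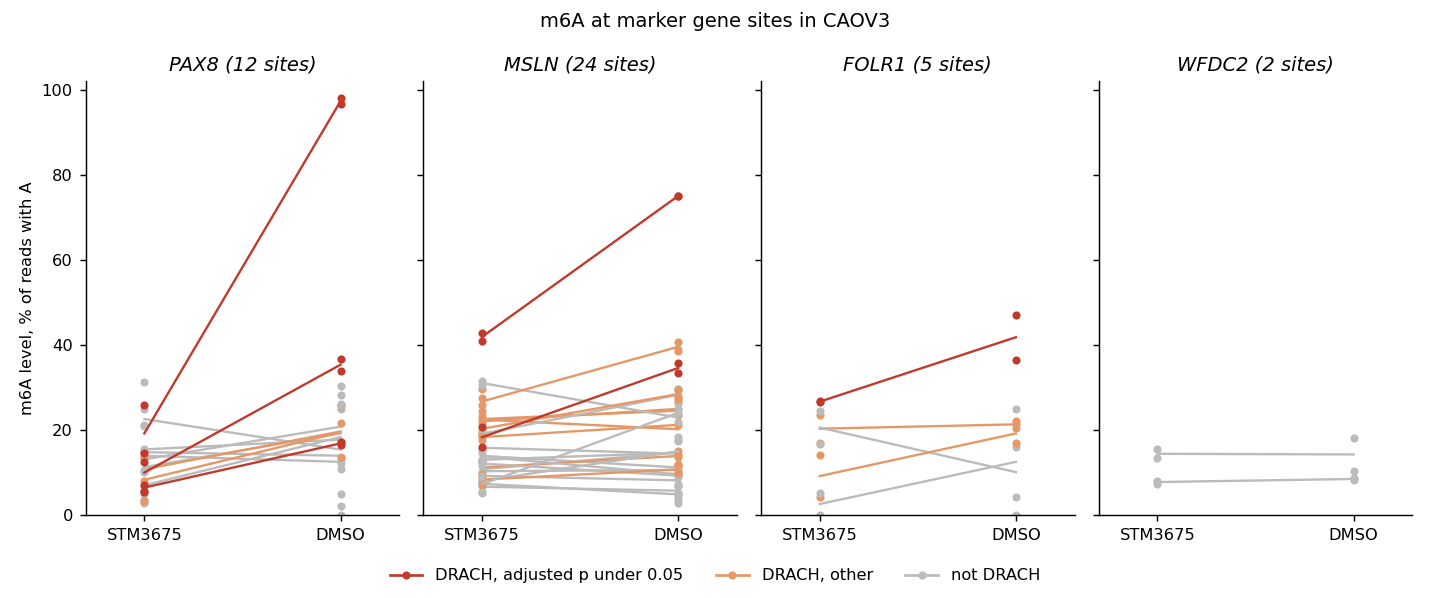
m6A level at each tested site of 4 genes in CAOV3 with STM3675 (left) and DMSO (right); points are the 2 libraries, lines join the means, red marks DRACH sites past the threshold, orange other DRACH sites and grey non-DRACH sites. The PAX8 site at 97.3% with DMSO averages 19.2% with STM3675, while the MSLN site at 75% averages 41.9%.

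Coverage moved less. SOX17 had 6.07 and 6.28 CPM with STM3675 and 3.83 and 3.56 CPM with DMSO (161 and 138 reads against 72 and 67), a log2 fold change of 0.74 ± 0.232 (SE, edgeR adjusted p = 0.02). WFDC2 had 242 and 261 CPM with STM3675 and 138 and 216 CPM with DMSO (log2 fold change 0.50 ± 0.165, edgeR adjusted p = 0.025). The other 4 did not pass: FOLR1 had 26.9 and 30.0 CPM with STM3675 and 24.3 and 23.5 CPM with DMSO, and MSLN 291 and 310 CPM with STM3675 and 253 and 269 CPM with DMSO. PAX8 had 68.6 and 73.6 CPM with STM3675 and 79.3 and 80.7 CPM with DMSO (log2 fold change -0.17 ± 0.153, edgeR adjusted p = 0.41). MECOM, at 14 and 10 reads against 6 and 12, was too shallow for a direction. So 2 of 6 genes were higher and 0 lower, where 20.4% of the 13729 genes were higher, 18.7% lower and 39.1% either. Both calls were lost when only the most covered site of each gene was counted (edgeR adjusted p = 0.062 for SOX17 and 0.13 for WFDC2). SOX17 was also lost on leaving out any one of the 4 CAOV3 libraries (adjusted p between 0.069 and 0.11), and WFDC2 without DMSO replicate 1, where its log2 fold change was 0.22, or without either STM3675 library (adjusted p = 0.071 and 0.14).

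A wider list of 30 Müllerian and ovarian carcinoma genes was set beside these, 27 of them listed in the table. With STM3675, 6 of the 27 rose in coverage and 3 fell, where 20.4% of all genes were higher and 18.7% lower. Their median log2 fold change was 0.12, against -0.01 over all genes. The protease KLK10 (log2 fold change 1.48) and the tight junction protein CLDN3 (1.35) rose. Of 16 with testable m6A, 13 fell and none rose, a share close to the 81.7% of all 11227 genes that fell. Their median difference was -27.3 points, against -20.1 points over all genes. Between ovarian and other lines, 0 of the 27 reached the smallest permutation p with the ovarian lines higher, against 5.01% of all genes.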

How the data were processed

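The submitters' processing notes name cutadapt, STAR and the build GRCh38. Tool versions, settings, the site caller and any use of molecular identifiers are not stated in the sources. Per site and library, the authors deposited the count of reads with A or G and the fraction of those that are A, with gene, exon and 5-base motif. Fraction times count was whole within 5.5e-12, so A counts were recovered. Another 8 value columns, the authors' means, were not used. The column prefixes D and T were taken to mean DMSO and treated.

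Sites with at least 20 reads in every library compared were fitted with a quasi-binomial logistic model (R 4.3.3), with dispersion moderated by squeezeVar of limma 3.58.1 and floored at 1; all sites thereby shared 1 dispersion, 1.67 in CAOV3 and 1.85 over lines, so a site's own spread has no weight. Gene levels summed A and G counts over tested sites. Coverage per gene was tested with edgeR 4.0.16 (quasi-likelihood, TMM scaling, filterByExpr) on all 14 libraries, with DESeq2 1.42.0 as an alternative. P-values were adjusted by Benjamini-Hochberg over all features with a threshold of 0.05; the ovarian comparison used a two-sided exact permutation test over 6 line means. The models were tested on simulated data. Files were handled with the R package data.table, version 1.17.8, and plots made with Python 3.11.15, pandas 2.3.3, numpy 2.4.6 and matplotlib 3.10.9.

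The genes, lists and tests were chosen with earlier results of these data known. Named sites are all sites of WFDC2 and, in each other gene, up to 3 with the largest STM3675 difference, the 1 with the highest ratio to DMSO, the 3 covered in most lines and the 2 with the largest range among lines. Other lists gave up to 3 members with the largest change, and some that this rule names are not reported here.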

Additional observations from a re-analysis of the deposited data

How the results depend on the processing

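Of the 6 CAOV3 sites that fell, limma on unweighted arcsine square root levels kept 3 (PAX8 113218111 and 113218521, MSLN 768824), and leaving out 1 library gave 5 to 8 falls and 0 to 1 rises, the rise being MSLN 764675 without DMSO replicate 2. A left-out library leaves 1 lone sample that is assumed to vary like the others. The 2 genes with lower m6A were 1 when restricted to sites listed because of another line, which leaves out every site that passed in CAOV3, and 1 (FOLR1 lost without STM3675 replicate 2) to 4 (MSLN and WFDC2 gained without DMSO replicate 1) on leaving out 1 library. Of the 18 sites that differed among lines, 0 were called by unweighted limma, 1 by limma after correction for background, 6 by limma weighted by reads and 0 without COV644 and OE21, the last 2 settings chosen after seeing the data; leaving out 1 library gave 7 (COV644 replicate 2) to 27 (SKOV3 replicate 1). Over all sites the main 29360 calls were 20, 57, 6310 and 4931 under these 4 settings and 15701 to 60958 on leaving out 1 library. The 2 genes with higher coverage were 0 with the most covered site only and 0 to 2 on leaving out 1 library; over all genes 5373 calls were 1620 and, at the lowest, 3477. Per-gene m6A calls over all genes were 9177, and 1063 at sites listed because of another line. Values that changed sign, none past the threshold on either side, were MSLN coverage at its most covered site (log2 fold change -0.11) and the MSLN gene level at sites listed because of another line (0.494 points). On leaving out 1 library, ranges that crossed 0 were -0.36 to 0.62 (log2) for coverage of MECOM, and in points of m6A -4.35 to 2.31 for FOLR1 72195667, -20.1 to 1.69 for MSLN 766098, -0.462 to 2.35 for MSLN 766343, -3.01 to 2.41 for MSLN 768715 and -3.69 to 3.99 for WFDC2 45470437. Except where a setting tests fewer sites or samples, the cause of a change was not tested. TMM against RLE scaling, DESeq2, no filter and minimums of 10 or 50 reads kept each of these counts within 1.5 times. Deviations of libraries with the same replicate number correlated between -0.0312 and 0.0235 over m6A sites and between -0.322 (OE21 and SKOV3) and 0.34 (COV644 and OE21) over gene coverage, where 3 of 21 pairs of groups were over 0.1, so the numbers were not taken to pair the samples; with the replicate number as a block 6 sites fell, 2 genes had lower m6A, 18 sites differed among lines and 2 genes had higher coverage.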
